A study of Homo sapiens with 18 samples.

Results

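Genes named with LINC and a number, the symbol form given to long intergenic noncoding RNAs, were followed through the first 4 days of neural differentiation of a human pluripotent stem cell line. The table held 25 rows with such a symbol among 37550 rows, and 6 of them had a mean of at least 5 TPM (a measure of transcript abundance scaled for transcript length and library size) over the 2 replicates of at least 1 of 9 groups. These 6 genes, LINC00888, LINC02210, LINC01145, LINC00680, LINC03006 and LINC00475, were chosen by these measured values, so that their presence above 5 TPM is a description and carries no test. Of the other 19 rows, 6 were listed at 0 in every library and 15, these 6 included, had a mean under 1 TPM in every group. The lowest of the chosen genes by highest group mean were LINC00475 (6.22 TPM), LINC03006 (14.9 TPM) and LINC00680 (21.0 TPM). The nearest below the threshold were LINC03009 (3.63 TPM), LINC00674 (3.46 TPM) and LINC01667 (2.18 TPM).

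A long noncoding RNA is a transcript, usually capped, spliced and polyadenylated like a messenger RNA, that is not translated into a known protein, and the intergenic kind lies between protein-coding genes. Many are restricted to a tissue or a stage, and some act on chromatin, on nearby genes or as hosts of small nucleolar RNAs that are cut from their introns. A transcribed pseudogene is a copy or remnant of a protein-coding gene that is still made into RNA, and where it is nearly identical to its relatives, short reads from one locus can match another.

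All 18 libraries came from H1, an established wild-type human pluripotent stem cell line, so every result describes 1 line, with 2 biological replicates per group. Undifferentiated cells (hPSC) were taken at day 0, anterior (aNE) and posterior (pNE) neural ectoderm at day 2, and both origins carried to day 4 in a forebrain, a midbrain or a hindbrain medium (aNE_T, aNE_M, aNE_H, pNE_T, pNE_M and pNE_H). All differentiated cells shared a day-1 definitive ectoderm medium with A8301 at 1 µM, trametinib at 250 nM, C59 at 1 µM and LDN193189 at 100 nM, which inhibit TGF-beta type receptors, MEK, WNT secretion and BMP receptors. The day-2 media shared A8301, LDN193189 and thiazovivin. The medium for aNE also held C59 at 1 µM, and that for pNE held TTNPB, a retinoic acid receptor agonist, at 50 nM, FGF2 at 20 ng/mL and XAV939, a tankyrase inhibitor, at 1 µM. Cells for day 2 were plated at 37500 per cm2, whereas cells for day 4 were plated at 75000 (aNE) or 150000 (pNE) per cm2, so that origin and density cannot be told apart at day 4. Changes from day 2 to day 4, and their comparison between origins, cannot be told apart from density either. RNA was selected with poly-T beads, and what the midbrain and hindbrain media held was not used here.

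Markers of the labelled cell types were present. POU5F1, a core pluripotency factor, averaged 2889 TPM in hPSC, 163 in aNE and 170.2 in pNE and was at most 5.46 in every day-4 group. SIX3, a forebrain factor, averaged 397 TPM in aNE_T, EN1, a midbrain factor, 135 in aNE_M, and HOXB1, a hindbrain factor, 343 in pNE_M and 330 in pNE_H. HOXB1 also averaged 136 TPM in pNE_T, in the forebrain medium. Replicates had a Pearson's r of 0.982 to 0.987 over 17033 genes, against at most 0.968 for 2 libraries from separate groups.

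The annotation of the 6 genes was set beside their symbols. RefSeq (GRCh38.p14) types all 6 as long noncoding RNA, whereas GENCODE release 29 types all 6 as transcribed pseudogenes. Of all 25 rows, 19 had a pseudogene type there, 2 a lincRNA type, 3 a protein-coding type, and 1 was not matched. The table as a whole held 15 of the 7623 symbols that GENCODE types as lincRNA (0.197%), but 576 of 884 transcribed unprocessed pseudogenes (65.2%) and 18812 of 19936 protein-coding genes (94.4%). The 6 genes are therefore described below as LINC-named transcribed pseudogenes, and they do not sample the long intergenic noncoding RNAs of these cells. Of 46 other well-known long noncoding RNAs looked up by symbol, 2 were in the table, TUNAR and TUG1.

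The loci lie on 6 chromosomes (RefSeq coordinates on GRCh38.p14). LINC00888, which RefSeq names SNHG33, a small nucleolar RNA host gene, lies at chr3:183447608-183456013 on the plus strand and overlaps the small nucleolar RNA genes SNORA63D and SNORA63E. LINC02210 lies at chr17:45620329-45646231 on the plus strand and overlaps a readthrough gene to CRHR1, the corticotropin-releasing hormone receptor. LINC01145 lies at chr1:145164099-145216052 on the minus strand. LINC00680 lies at chr6:57945834-57961446 on the minus strand and overlaps a readthrough gene to the pseudogene GUSBP4. LINC03006 lies at chr7:65647010-65770810 on the minus strand and overlaps the transcribed pseudogenes INTS4P2 and CCT6P1 and the small nucleolar RNA genes SNORA22 and SNORA15B-2. LINC00475 lies at chr9:92141467-92159608 on the plus strand.

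Of the 6 genes, 4 are printed because their sequences show how unlike these loci are in what they share with other genes. Each is the spliced transcript that GENCODE release 29 types as a pseudogene, written 5′ to 3′, with capitals for every base inside a 31-base stretch that also occurs in a transcript of a gene at another locus. That of LINC01145 (chr1:145214677-145215726, minus strand, 2 exons), of LINC00680 (chr6:57959029-57961345, minus strand, 3 exons), of LINC00475 (chr9:92141438-92141650, plus strand, 1 exon) and of LINC03006 (chr7:65770473-65770720, minus strand, 1 exon) read:
LINC01145: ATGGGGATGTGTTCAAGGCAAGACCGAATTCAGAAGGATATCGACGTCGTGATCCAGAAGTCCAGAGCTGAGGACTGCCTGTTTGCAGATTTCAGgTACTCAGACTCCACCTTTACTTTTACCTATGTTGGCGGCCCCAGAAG
LINC00680: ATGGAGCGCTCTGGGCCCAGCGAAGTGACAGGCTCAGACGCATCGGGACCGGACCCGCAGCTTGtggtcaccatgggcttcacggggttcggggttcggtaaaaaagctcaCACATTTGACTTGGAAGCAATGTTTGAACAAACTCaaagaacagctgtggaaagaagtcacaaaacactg
LINC00475: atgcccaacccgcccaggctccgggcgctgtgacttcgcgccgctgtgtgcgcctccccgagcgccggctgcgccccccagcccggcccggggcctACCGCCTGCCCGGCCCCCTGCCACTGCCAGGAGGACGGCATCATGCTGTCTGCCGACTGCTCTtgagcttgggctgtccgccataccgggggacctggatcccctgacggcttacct
LINC03006: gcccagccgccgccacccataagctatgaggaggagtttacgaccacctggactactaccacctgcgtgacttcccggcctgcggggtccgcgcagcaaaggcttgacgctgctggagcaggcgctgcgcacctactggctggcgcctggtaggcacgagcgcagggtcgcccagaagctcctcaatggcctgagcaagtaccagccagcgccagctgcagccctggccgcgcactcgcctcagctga
In LINC01145, 142 of 143 bases (99.3%) were shared. In LINC00680 it was 99 of 181 bases (54.7%), in LINC00475 it was 63 of 213 (29.6%), and in LINC03006 none of 248. The corresponding transcript of LINC00888 (421 bases) also had no shared stretch. The bases shared by LINC00475 were with LGR6, a receptor for R-spondins, which was at 0.0182 to 0.716 TPM by group mean. Those shared by LINC00680 were with the pseudogene GUSBP1 (1.92 to 6.84 TPM) and with WDR70, a WD-repeat gene (24.2 to 39.4 TPM). LINC01145 shared its sequence with pseudogenes and noncoding genes, of which LINC00869 had a row in the table (0.00482 to 0.308 TPM), and shared 18 of its 31-base stretches with PARP8, an ADP-ribosyltransferase family gene (37.0 to 76.0 TPM).

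The same stretches were then counted over all annotated transcripts of each gene. Of the 6166 distinct 31-base stretches of LINC01145, 5437 (88.2%) occurred at another locus, 4620 of them (74.9%) in LINC02591. The share was 19.5% (589 of 3025) in LINC00680, 19.2% (371 of 1932) in LINC03006, 8.23% (1286 of 15634) in LINC02210, 2.97% (65 of 2187) in LINC00888 and 1.96% (77 of 3931) in LINC00475. By this count, levels of LINC01145, and to a lesser extent of LINC00680 and LINC03006, are uncertain. The uncertainty depends on how the authors' quantification divided such reads between loci. Over the transcripts typed as pseudogenes alone, it also applies to LINC00475 (29.6% of bases shared) and not to LINC03006 (no shared bases). Which transcripts the quantification index held is not given in the sources used here. The other annotated transcripts of the 6 genes run from 277 to 9678 bases, so a row's TPM also depends on which of them were included.

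The 6 genes together took 78.9 to 137 TPM per library, or 0.00789% to 0.0137% of the total, and 5 of them averaged at least 5 TPM in all 9 groups. LINC00475 reached that level in 3 groups only, aNE, pNE and pNE_M. The group with the highest mean was hPSC for LINC02210, pNE for LINC03006, pNE_T for LINC00888 and LINC00680, and pNE_M for LINC01145 and LINC00475. Among the 6 genes, LINC02210 alone had both libraries of its highest group above all other libraries.

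**Figure D1:**
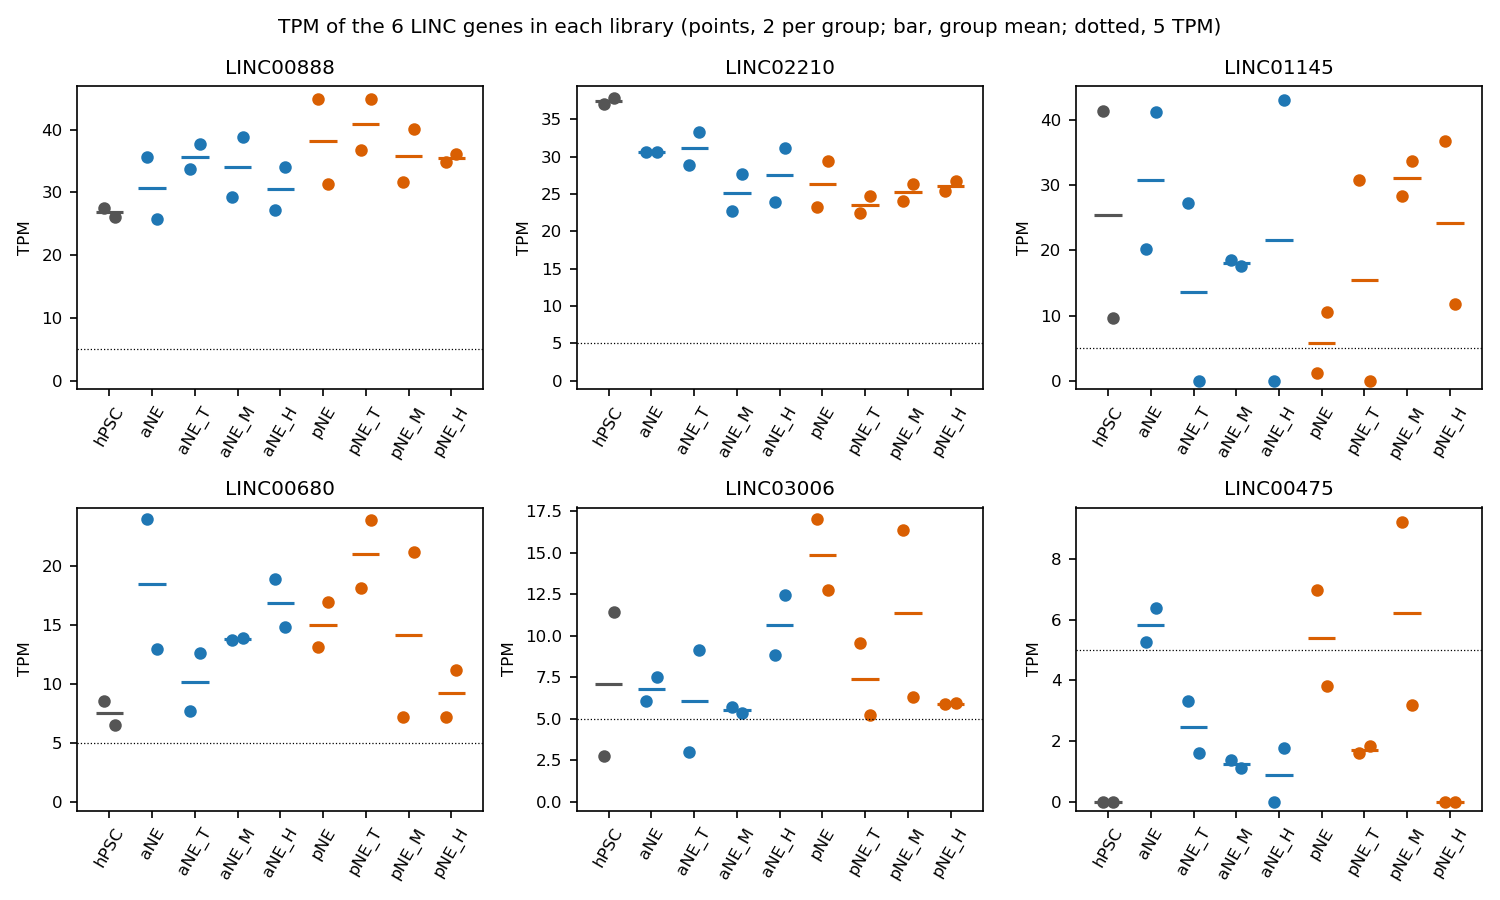
TPM (vertical axis, linear) of the 6 genes in each of 9 groups (horizontal axis); points are the 2 libraries of a group, the bar is their mean and the dotted line is 5 TPM. LINC00888 and LINC02210 stay between 22.5 and 44.99 TPM in all libraries, LINC01145 ranges from 0 to 43.1 TPM with replicates far apart, and LINC00475 is at 0 in both hPSC and both pNE_H libraries.

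Differences between groups were fitted with limma on log2(TPM + 1) over 17033 genes, and a gene was called changed at a Benjamini-Hochberg adjusted p under 0.05 and a difference of at least 1 on that log2 scale, which understates changes of low genes. Each of the 6 genes meets the 5 TPM rule through groups outside every pair compared, so the pairwise tests do not reuse the values that chose it. The p-values measure the spread between replicates of 1 line, and in these bulk samples fewer expressing cells and less RNA per cell cannot be told apart.

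LINC00475 accounted for most of the calls. Both hPSC libraries were listed at 0, as were both pNE_H libraries. These groups add no spread between replicates to the SE shared by its tests. That SE may thus understate the spread of the groups with signal. At day 2 LINC00475 stood at 5.28 and 6.39 TPM in aNE and at 6.99 and 3.83 TPM in pNE. All 4 day-2 libraries thus lay above both hPSC libraries, and the origins overlapped. The gene was called higher than in hPSC both in aNE (adjusted p = 3.91e-04) and in pNE (adjusted p = 6.13e-04), comparisons that share the hPSC libraries, and no fold is given against a group listed at 0. The 2 origins differed by -0.13 (pNE minus aNE, log2 scale, 95% interval -1.14 to 0.87, adjusted p = 0.908).

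At day 4 the mean of LINC00475 was below that of its day-2 origin in every group but pNE_M. The fall was called only in aNE_M, aNE_H and pNE_H. In aNE-derived cells it stood at 3.33 and 1.61 TPM in the forebrain medium, 1.38 and 1.12 TPM in the midbrain medium and 0 and 1.78 TPM in the hindbrain medium, every one of these libraries below both aNE libraries. Relative to aNE the log2 difference was -1.60 ± 0.46 (SE) in aNE_M (adjusted p = 0.0168) and -2.03 ± 0.46 in aNE_H (adjusted p = 0.00489), both called lower, and -1.02 ± 0.46 in aNE_T (adjusted p = 0.120), which was not called. The 3 contrasts share the aNE libraries. The aNE_M call was lost when any 1 of the 4 libraries was left out (adjusted p = 0.0526 to 0.0895), and the aNE_H call without aNE_H replicate 1, the library at 0 (-1.29 log2, adjusted p = 0.0577). The first was also lost with a pseudocount of 0.1 (adjusted p = 0.110) and the second in a fit of only the compared libraries (adjusted p = 0.103).

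In pNE-derived cells LINC00475 stood at 1.62 and 1.84 TPM in pNE_T, at 9.23 and 3.21 TPM in pNE_M and at 0 in both pNE_H libraries. Against pNE the gene was called lower in pNE_H (adjusted p = 6.08e-04). Leaving out a pNE library could not change the sign, since both pNE libraries were above 0 and both pNE_H libraries at 0. Leaving out a pNE_H library could not change the difference at all. The log2 difference was -1.19 ± 0.46 in pNE_T (adjusted p = 0.0668) and 0.08 ± 0.46 in pNE_M (95% interval -0.93 to 1.09, adjusted p = 0.929). Among the 12 day-4 libraries, only pNE_M replicate 1 at 9.23 TPM lay above the day-2 range of LINC00475.

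Between origins in the midbrain medium LINC00475 was called higher in pNE_M than in aNE_M by 1.55 ± 0.46 on the log2 scale (95% interval 0.54 to 2.55, adjusted p = 0.0373), and the groups did not overlap. This call rests on few libraries: it was lost without aNE_M replicate 1 (adjusted p = 0.0951), without aNE_M replicate 2 (0.156) and without pNE_M replicate 1 (0.316, with a difference of 0.91). It was also lost with a pseudocount of 0.1, with no filter on low values, with quantile normalization and in a fit of only the compared libraries (adjusted p = 0.0639 to 0.212). The summed level of 7 surface ectoderm markers was 2064 to 2119 TPM in pNE_M and 921 to 981 TPM in aNE_M, nearly all of it from the simple-epithelium keratins KRT8 and KRT18, while TP63, which defines basal epithelium, was at 0.0870 and 0.0338 TPM, and of the 7 markers KRT5 was at 0 in aNE_M. The summed level of 11 mesendoderm markers was 18.3 to 19.6 TPM in pNE_M and 98.3 to 117 TPM in aNE_M, most of it from MIXL1 (mean 11.5 and 86.5 TPM) and EOMES (0.296 and 16.5 TPM). Other mesendoderm markers had the opposite order, among them GATA6 (2.34 and 0.150 TPM) and CER1 (2.19 and 0.135 TPM), and SOX17 was at 0 in both groups. The summed level of 7 neural crest markers was 81.9 to 93.4 TPM in pNE_M and 139 to 147 TPM in aNE_M, most of it from PAX3 (mean 41.0 and 125 TPM), which neural progenitors also express. SOX10 (5.39 and 0.647 TPM), FOXD3 (15.9 and 0.0512 TPM), SNAI2 (17.3 and 8.45 TPM), PAX7 (6.74 and 4.65 TPM) and TFAP2A (0.914 and 0.660 TPM) had higher means in pNE_M than in aNE_M. TFAP2B (0.390 and 3.37 TPM), like PAX3, had a lower mean in pNE_M. The part of these cell types in the result was not tested. In the forebrain medium the origins differed by -0.30 (adjusted p = 0.728), and in the hindbrain medium pNE_H was at 0 in both libraries and aNE_H in 1 of its 2 (adjusted p = 0.305, and 0.0482, a call, without aNE_H replicate 1). The nearest protein-coding genes to LINC00475, SPTLC1 (26.1 kb away, a subunit of serine palmitoyltransferase, 45.1 to 59.4 TPM by group mean) and IARS1 (50.6 kb away, isoleucyl-tRNA synthetase, 113 to 219 TPM), were called in none of the 12 pairwise comparisons. IARS1 averaged 161 TPM in hPSC, 194 in aNE, 219 in pNE and 113 to 173 TPM in the day-4 groups. A log2 difference under 1 is never called, so the lack of a call does not show that a neighbour was unchanged.

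LINC00680 was the other gene called in any comparison. In hPSC it stood at 8.54 and 6.51 TPM, a mean of 7.52 ± 1.44 (SD, n = 2), in aNE at 24.0 and 12.98 TPM (18.5 ± 7.79) and in pNE at 13.1 and 16.9 TPM (15.03 ± 2.69). All 4 day-2 libraries lay above both hPSC libraries. The log2 difference from hPSC was 1.14 ± 0.41 in aNE (95% interval 0.26 to 2.02, adjusted p = 0.0383, called) and 0.91 ± 0.41 in pNE (adjusted p = 0.0965, not called), and the difference between origins was -0.23 (95% interval -1.11 to 0.65, adjusted p = 0.789). The aNE call was lost without hPSC replicate 1 (adjusted p = 0.0736), without hPSC replicate 2 (0.175) and without aNE replicate 1 (0.280, with a difference of 0.72), with no filter on low values (0.0798) and in a fit of only the compared libraries (0.0937). GUSBP1, which holds 16.4% of the 31-base stretches of LINC00680, was itself called higher than in hPSC in aNE (1.18 ± 0.30 log2, adjusted p = 0.00642) and in pNE (1.48 ± 0.30 log2, adjusted p = 0.00153). Its part in the LINC00680 values was not tested.

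At day 4 the values of LINC00680 were spread widely. They were 7.75 and 12.6 TPM in aNE_T, 13.7 and 13.9 in aNE_M, 18.9 and 14.8 in aNE_H, 18.1 and 23.9 in pNE_T, 7.198 and 21.2 in pNE_M and 7.21 and 11.2 in pNE_H. The 2 pNE_T libraries lay above the 2 aNE_T libraries, by 1.00 ± 0.41 log2, which did not pass the adjustment (adjusted p = 0.109). The 2 pNE_M libraries lay on both sides of the aNE_M libraries.

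LINC02210 was the gene with the tightest replicates and its highest level in undifferentiated cells. It stood at 37.1 and 37.8 TPM in hPSC, 30.7 and 30.7 in aNE and 23.3 and 29.5 in pNE. At day 4 its libraries ranged from 22.5 to 33.3 TPM, so that both hPSC libraries were above all 16 others. The log2 difference from hPSC was -0.50 ± 0.14 in pNE (95% interval -0.80 to -0.20), which passed the adjusted p (0.0128) but not the size needed for a call, and -0.28 ± 0.14 in aNE (adjusted p = 0.129). In the forebrain medium it was lower in pNE_T (22.5 and 24.7 TPM) than in aNE_T (28.95 and 33.3 TPM), by -0.38 ± 0.14 log2 (adjusted p = 0.0719). In each of the 12 pairwise comparisons its 95% interval stayed within a difference of 1 on the log2 scale. Its neighbour PLEKHM1 (130 kb away, a regulator of lysosomal fusion, 8.75 to 18.4 TPM) was called in no pairwise comparison, and CRHR1 on the other side was between 0.0631 and 1.98 TPM and was called lower in aNE_T than in aNE (-1.36 log2, adjusted p = 0.00696).

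LINC00888, the small nucleolar RNA host, had group means from 26.9 TPM in hPSC to 40.9 TPM in pNE_T. It stood at 27.6 and 26.2 TPM in hPSC, 35.7 and 25.8 in aNE and 44.99 and 31.4 in pNE, and at day 4 its libraries ranged from 27.2 to 44.95 TPM. The aNE libraries lay on both sides of the hPSC libraries and aNE_H overlapped them, whereas both libraries of each of the other groups lay above both hPSC libraries. The difference from hPSC was 0.17 ± 0.20 log2 in aNE (adjusted p = 0.536) and 0.47 ± 0.20 in pNE (95% interval 0.03 to 0.91, adjusted p = 0.0837). For LINC00888, too, all 12 pairwise intervals stayed within a log2 difference of 1. By contrast its neighbour MCF2L2 (18.99 kb away, a guanine nucleotide exchange factor family member) had a mean of 6.27 TPM in aNE and was called lower in pNE (-1.42 log2), aNE_T (-2.04), aNE_M (-2.08) and aNE_H (-2.22), comparisons that share the aNE libraries. Whether the 2 neighbours differ in response was not tested.

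LINC03006 had its highest mean in pNE, at 17.0 and 12.8 TPM (14.9 ± 3.01, SD, n = 2), against 6.06 and 7.53 TPM in aNE. The 2 hPSC libraries stood far apart at 2.75 and 11.4 TPM. The pNE libraries lay above both aNE and both hPSC libraries, but neither the difference from aNE (1.02 ± 0.55 log2, adjusted p = 0.275) nor that from hPSC (1.21 ± 0.55, adjusted p = 0.104) was called. Without hPSC replicate 2 the difference from hPSC was 2.07 with an adjusted p of 0.0146. In the hindbrain medium LINC03006 stood at 5.89 and 5.95 TPM in pNE_H and at 8.84 and 12.4 TPM in aNE_H, below pNE in the first case and above aNE in the second. The difference of these 2 changes was -1.75 ± 0.78 log2 (unadjusted p = 0.0427, adjusted p = 0.160), so it was not called, although a fit of only the compared libraries gave an adjusted p of 0.0174. That fit also called the fall from pNE to pNE_H (-1.19 log2, adjusted p = 0.0364), which the fit of all libraries did not (adjusted p = 0.112). The remaining groups ran from 2.98 to 9.58 TPM, except pNE_M replicate 1 at 16.4 TPM.

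LINC01145, the gene with the largest shared sequence, had replicates far apart in 7 of 9 groups, all but aNE_M and pNE_M. It stood at 41.5 and 9.56 TPM in hPSC, 20.2 and 41.4 in aNE, 27.3 and 0 in aNE_T, 18.5 and 17.7 in aNE_M and 0 and 43.1 in aNE_H. In pNE it stood at 1.17 and 10.5 TPM, in pNE_T at 30.8 and 0, in pNE_M at 28.4 and 33.8 and in pNE_H at 36.8 and 11.7. A library at 0 stood beside a replicate of 27.3 TPM or more in 3 groups. The SE of every pairwise difference was 1.91 on the log2 scale, and the interval for aNE minus hPSC ran from -3.64 to 4.64, so that differences of several log2 units were not detectable between any 2 groups.

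The SD within groups ran from 0.148 to 2.25 among the 6 genes, and the SD of their group means from 0.178 to 1.14, both on the log2 scale. Over all tested genes the median SD within groups was 0.161, and the median SD of the 9 group means was 0.331. LINC02210 (SD within groups 0.148) and LINC00888 (0.228) were in the body of that distribution, with 44.3% and 69.5% of genes at or below them. LINC00680 (0.471), LINC00475 (0.526) and LINC03006 (0.640) had more spread than 91.2%, 93.1% and 95.7% of genes. LINC01145 (2.25) exceeded 99.98% of genes, with a replicate gap of 5.46 log2 units in aNE_H. Among the 2316 genes with a mean log2 level between 3 and 4, the range that holds LINC01145, LINC00680 and LINC03006, 99% had an SD of at most 0.554, so LINC01145 and LINC03006 were above that limit and LINC00680 below it. LINC00475 has a mean log2 level between 1 and 2, where 90% of 2234 genes had an SD of at most 0.625, above its own 0.526. Its hPSC and pNE_H libraries, all listed at 0, lower this 0.526, and the SD of its other groups alone is larger. The SD of group means exceeded the SD within groups for LINC00475 (2.09 times) and LINC02210 (1.36 times), and was below it for the other 4. The median of this ratio over all tested genes was 1.86, and among the 6 genes LINC00475 alone was above it. Its 2.09 rests in part on the groups listed at 0, which lower its SD within groups. It is thus not shown that LINC00475 exceeds a typical gene.

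**Figure D2:**
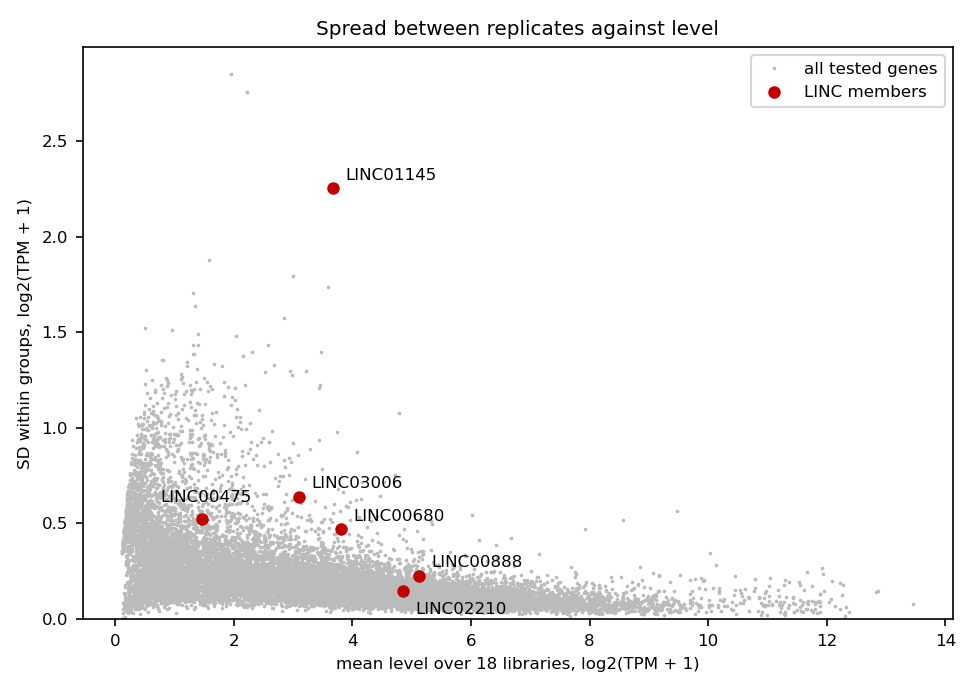
SD within groups (vertical axis) against mean level over 18 libraries (horizontal axis), both on the log2(TPM + 1) scale; grey points are the 17033 tested genes and red points the 6 LINC genes. LINC01145 stands at an SD of 2.25, above nearly all genes of its level, whereas LINC02210 and LINC00888 lie within the grey band.

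Shared sequence and spread can be set side by side for the 6 genes. LINC01145 had both the largest share of stretches found elsewhere (88.2%) and the largest SD (2.25). Below it the orders parted. Over all annotated transcripts LINC00475 had the smallest share (1.96%) and an SD of 0.526, above that of LINC00680 with a share of 19.5%. Over the transcripts typed as pseudogenes alone, LINC00475 (29.6% of bases shared) did not have the smallest share. There LINC03006 had no shared bases, with an SD of 0.640. Whether shared sequence sets the spread was not tested.

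**Figure D3:**
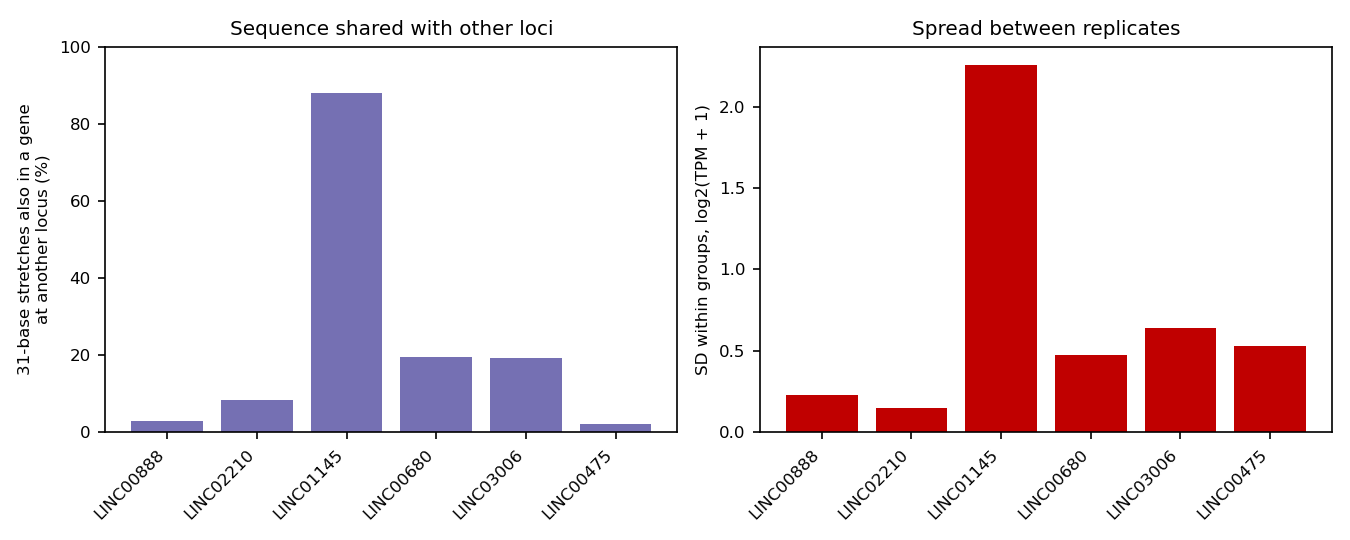
Left, percent of each gene's distinct 31-base stretches that also occur in a gene at another locus (bars from 0, scale to 100); right, SD within groups on the log2(TPM + 1) scale (bars from 0). LINC01145 is highest in both panels at 88.2% and 2.25, while the other 5 genes do not have the same order in the 2 panels.

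Counted over comparisons, calls among the 6 genes were few and were set against the share of all 17033 genes called. Against hPSC, 2 of 6 were called in aNE, where 13.5% of all genes were called, and 1 of 6 in pNE, where 12.9% were. At an unadjusted p under 0.05, limma gave 2 of 6 in aNE (49.1% of all genes) and 5 of 6 in pNE (46.6%). The median log2 difference of the 6 genes was 0.34 in aNE and 0.69 in pNE, beside 0.06 and 0.05 over all genes. Between origins, 0 of 6 were called at day 2 (3.85% of all genes), 0 of 6 in the forebrain medium (7.77%), 1 of 6 in the midbrain medium (5.74%) and 0 of 6 in the hindbrain medium (6.83%). The counts at that unadjusted p were 0, 2, 1 and 0 of 6, where 25.8%, 31.4%, 27.8% and 32.8% of all genes passed it. From aNE to day 4, 0 of 6 were called in aNE_T (9.03% of all genes), 1 of 6 in aNE_M (12%) and 1 of 6 in aNE_H (10.1%). From pNE to day 4, 0 of 6 were called in pNE_T (10.2%), 0 of 6 in pNE_M (12.7%) and 1 of 6 in pNE_H (12.3%). The counts at an unadjusted p under 0.05 were 1, 1 and 1 of 6 from aNE (40.1%, 43.9% and 40.6% of all genes) and 1, 0 and 1 of 6 from pNE (42.5%, 44.2% and 45.3%). With so few genes, these counts are read as values of single genes and not as a property of the set.

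The change from day 2 to day 4 was also compared between origins, as an interaction. None of the 6 genes was called in the forebrain medium (7.14% of all genes) or the hindbrain medium (7.83%), and 0 of 5 in the midbrain medium (7.02%), where LINC00475 was left out because it reached 5 TPM only in groups of that contrast. At an unadjusted p under 0.05, limma gave 0, 1 and 0 genes in the forebrain, hindbrain and midbrain media, beside 23.1%, 28% and 26.1% of all genes. As a description, LINC00475 changed by 0.08 from pNE to pNE_M and by -1.60 from aNE to aNE_M on the log2 scale.

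**Figure D4:**
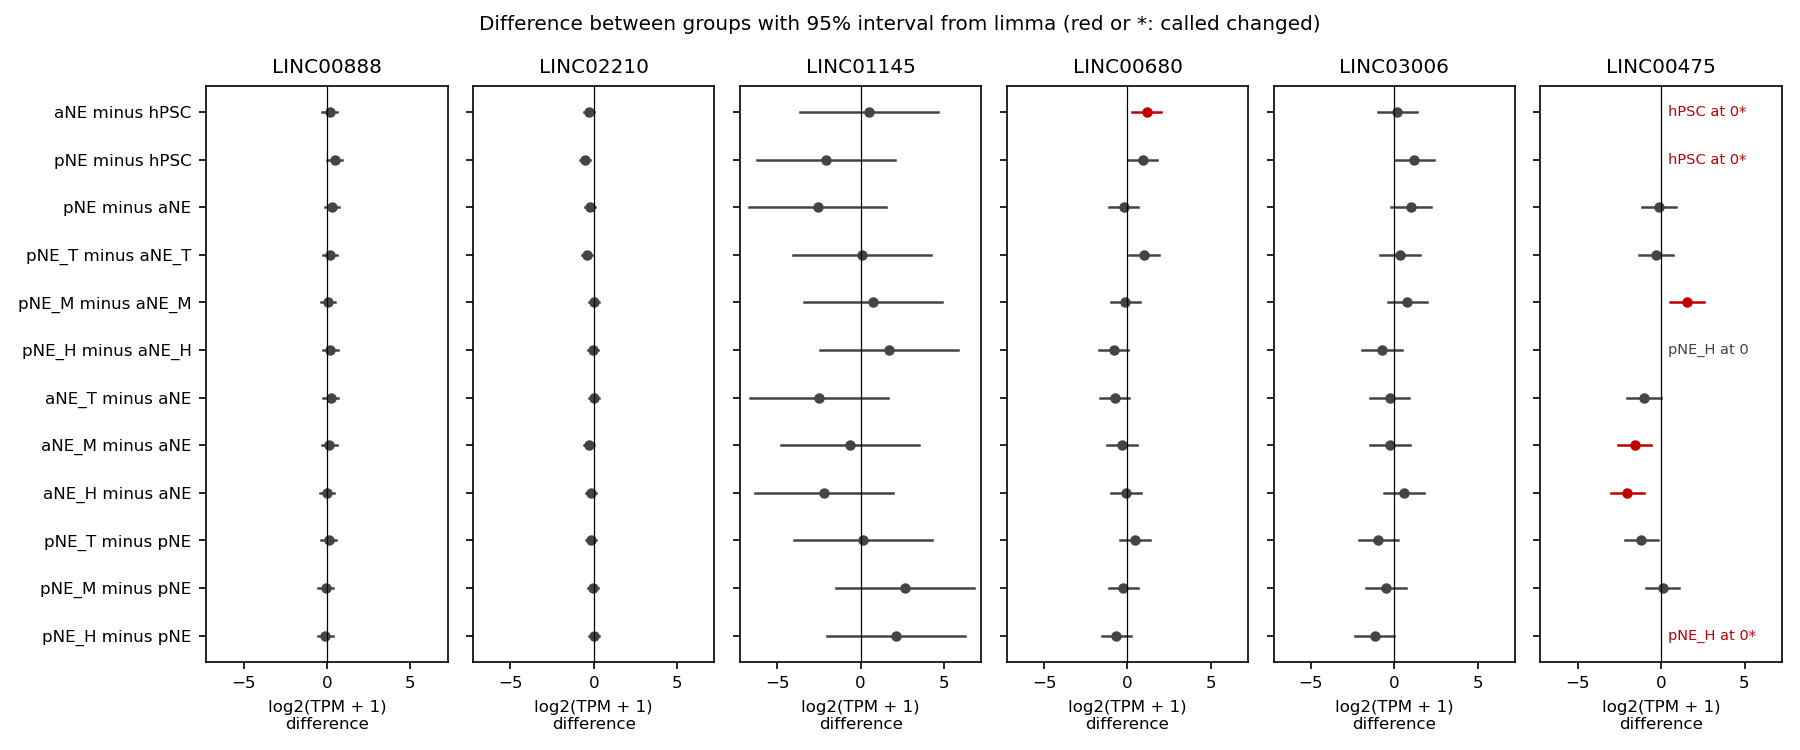
Log2(TPM + 1) difference (horizontal axis) in each of 12 comparisons (vertical axis) for the 6 genes; points are limma estimates, lines their 95% intervals, and red or an asterisk marks a call. No point is drawn where a group was at 0 in both libraries, which is written instead. LINC00475 holds 6 of the 7 calls, LINC00680 the other one, and the lines of LINC01145 are the widest.

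The 2 listed long noncoding RNAs found in the table had different patterns. TUNAR, a neural and pluripotency-associated RNA, averaged 26.5 TPM in hPSC, 54.0 in aNE and 42.0 in pNE, and at day 4 between 4.06 (pNE_M) and 22.7 TPM (pNE_T). TUNAR was called higher in aNE than in hPSC (1.00 log2, adjusted p = 2.00e-05), lower than aNE in aNE_M (-3.25) and aNE_H (-2.46) and lower than pNE in pNE_H (-1.85), comparisons in which LINC00475 was also called in that direction. It was called lower than aNE in aNE_T (-2.20) and lower than pNE in pNE_M (-3.09), where LINC00475 was not called, and its difference between pNE and hPSC (0.64) was under the size for a call, where LINC00475 was called. These differences between the 2 genes were not tested. TUG1, a broadly expressed RNA, averaged 55.9 to 70.3 TPM and was called in none of the 12 comparisons or 3 interactions.

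Promoter sequences (RefSeq, GRCh38.p14, 250 bases before to 50 after the start) were found for 4 of the 6 genes, 7 promoters in all. Their GC content ran from 59% to 77.3%, beside a median of 58.7% over 35116 promoters. The motifs searched on both strands were the POU octamer ATGCAAAT, in 1.77% of all promoters, SOX AACAATG (3.33%), the OTX-type TAATCC (6.36%), HOX-PBX TGATTGAT (0.484%), the homeobox core TAATTA (4.84%), TCF-LEF CTTTGAT (2.62%), the E-box CACGTG (7.26%), the TATA box TATAAA (11.5%) and a retinoid repeat of AGGTCA spaced by 5 bases (0.00570%). These letters occurred in none of the 7 windows, from which nothing follows about the factors.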

How the data were processed

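Poly-A RNA of 18 libraries in 9 groups was measured. The authors deposited 1 table of TPM per gene and library. The submitters' processing notes name bcl2fastq, FastQC, Trim Galore, kallisto and deepTools, with no versions or roles, and the build hg38. TPM keeps no read number, so depth is unknown and no counting interval or detection limit is given. A value of 0 was read as listed at 0.

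Groups came from the labels. The 6 genes were matched by symbol, and by gene ID where GENCODE had an older name. Values were analysed as log2(TPM + 1) for 17033 genes, those that reached 1 TPM in 2 or more libraries. limma 3.58.1 (R 4.3.3, variance trend, 9 residual degrees of freedom) fitted 1 mean per group to all 18 libraries, tested two-sided and adjusted over all genes by Benjamini-Hochberg. It was tested on simulated data first. The genes, lists and motifs were chosen with earlier results of these data known. Named genes were the 6 genes, the 3 rows next below the threshold, the nearest protein-coding neighbours, listed markers and 46 other long noncoding RNAs. GUSBP1, LGR6, WDR70, PARP8 and LINC02591 were named after their shared sequence was seen. Alternatives were a pseudocount of 0.1, a filter at 5 TPM or none, quantile normalization or median-ratio scaling, a replicate block, a fit of the compared libraries and leaving out each library. An annotation item is not reported here.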

Additional observations from a re-analysis of the deposited data

How the results depend on the processing

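Of the alternative counts of called or chosen genes, 163 stayed within 1.5 times and 26 did not, and of the alternative values of called genes, 58 kept the call, 19 lost it and 0 reversed. Many of the 163 are counts of 0 that stayed at 0, so that total does not measure how stable the calls are. In aNE against hPSC the count of 2 became 1 with no filter and 1 in a fit of the compared libraries, losing LINC00680 (adjusted p = 0.0798 and 0.0937), and it ran from 1 to 2 with a library left out. In pNE against hPSC it ran from 1 to 2 with a library left out, the second being LINC03006 without hPSC replicate 2. In pNE_M against aNE_M the count of 1 became 0 with a pseudocount of 0.1, with no filter, with quantile normalization and in the fit of the compared libraries (LINC00475, adjusted p = 0.193, 0.0814, 0.0639 and 0.212), and it ran from 0 to 1 with a library left out. In pNE_H against aNE_H it ran from 0 to 1, LINC00475 being called without aNE_H replicate 1. In aNE_M against aNE the count of 1 became 0 with a pseudocount of 0.1 (adjusted p = 0.110), and 0 to 0 with a library left out. In aNE_H against aNE it became 0 in the fit of the compared libraries (adjusted p = 0.103) and ran from 0 to 1 with a library left out. That fit also gave 2 in pNE_H against pNE and 1 for the hindbrain interaction, where LINC03006 was added (adjusted p = 0.0364 and 0.0174). Apart from fits with fewer libraries or another number of genes, the cause was not tested. Genes at the threshold in all 9 groups were 5, but 2 at a threshold of 10 TPM, 3 with both replicates required and 3 to 4 with 1 replicate alone, and the number chosen was 6 to 7 with 1 replicate alone. With the replicate number as a block, all 15 counts were as before (2 in aNE and 1 in pNE against hPSC, for instance). Replicate numbers did not pair the samples, since 36 correlations of deviations ran from -0.0896 to 0.0762. A leave-one-out fit leaves 1 library in a group, which is assumed to vary like the other groups. The 2 replicates a group, 1 line and an unknown depth limit all results.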
